A study of Oryza sativa Japonica Group with 12 samples.

Results

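*OsTCP7* (LOC4330080) and *OsLBD3-6* (LOC4333627) are 2 rice transcription factor genes that were selected on measured values of these arrays, because their signal was lower in crown root (CR) primordia than in stem cortex and lower again at each later stage. Each of them is read by 1 probe set of the array annotation (16185622 for *OsTCP7* and 16219740 for *OsLBD3-6*), 2 of the 24161 probe sets that the annotation assigns to 1 gene. The reference gene table holds no symbol for either gene, and the names are those of the study, whose text and supplement give different locus identifiers for each of them. Because the choice used these values, the levels and differences of both genes are given as a description and without a test.

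The plants were wild-type *Oryza sativa* ssp. Japonica cv. Taichung 65, harvested 8 days after sowing without a further treatment. In all 6 stem bases were cut into 15 µm sections, and early, intermediate and late CR primordia, taken from the 3 successive rings of the stem base, were laser-microdissected together with stem cortex from the same sections. Each of the 4 groups was hybridized to 3 arrays, 12 arrays in total, and each array held RNA pooled from 2 stem bases. The labels number the replicates within each group and do not state that a number stands for the same stem bases across groups. It was read that way here from the design. Values are log2 signals as deposited, a difference of 1 being a doubling.

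TCP proteins are plant transcription factors with a basic helix-loop-helix type domain for DNA binding, and many of them regulate cell proliferation and growth in shoots and roots. The first rice members of the family, *PCF1* and *PCF2*, were identified as proteins that bind the promoter of *PCNA*, the gene of the sliding clamp of DNA replication. LBD proteins carry the plant-specific LOB domain, and in rice and Arabidopsis members of this family act downstream of auxin in the initiation of crown and lateral roots. The study sets *OsLBD3-6* beside that root-forming branch of the family in its text, and nearest to Arabidopsis *LBD4* in its supplement.

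*OsTCP7* had its highest signals in cortex and its lowest in late primordia. On cortex replicates 1, 2 and 3 the log2 signal was 7.53, 6.95 and 8.34 (mean 7.61 ± 0.70, SD, n = 3). On the early arrays it was 4.47, 6.09 and 4.94 (5.17 ± 0.83, SD, n = 3). All 3 cortex arrays lay above all 3 early arrays, the nearest being cortex replicate 2 and early replicate 2. On the intermediate arrays it was 3.88, 3.70 and 5.08 (4.22 ± 0.75, SD, n = 3). On the late arrays it was 2.55, 4.12 and 3.16 (3.28 ± 0.79, SD, n = 3). Neighbouring stages overlapped, since intermediate replicate 3 was brighter than 2 of the early arrays and late replicate 2 was brighter than 2 of the intermediate arrays, whereas every early array lay above every late array. The lowest value, 2.55 on late replicate 1, was under the median of all probe sets on that array (2.88), and no detection call was used here, so whether the late signals stood above background was not tested.

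*OsLBD3-6* followed the same order of groups with smaller steps and a closer spacing of replicates. Its log2 signal on the cortex arrays was 6.18, 6.05 and 5.81 (mean 6.01 ± 0.19, SD, n = 3). On the early arrays it was 5.07, 5.50 and 5.03 (5.20 ± 0.26, SD, n = 3). Cortex and early arrays did not overlap. On the intermediate arrays it was 4.43, 4.87 and 5.05 (4.78 ± 0.32, SD, n = 3). On the late arrays it was 4.24, 4.24 and 3.76 (4.08 ± 0.28, SD, n = 3). Early and intermediate arrays met at their edges, with 5.03 on early replicate 3 against 5.05 on intermediate replicate 3, while every intermediate array lay above every late array.

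**Figure D1:**
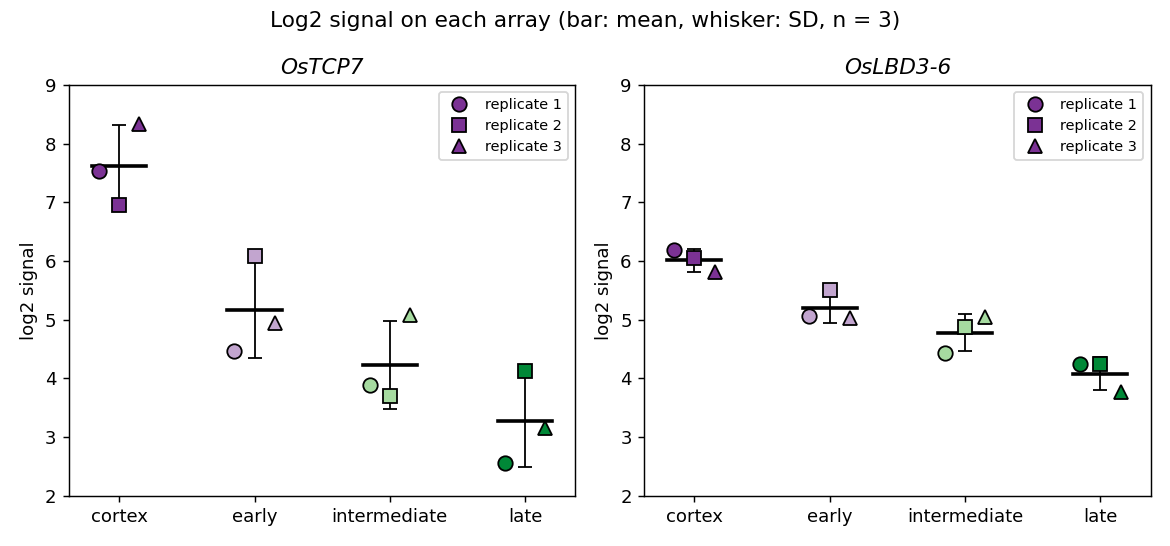
Log2 signal (vertical axis) of *OsTCP7* (left) and *OsLBD3-6* (right) on each of the 12 arrays, grouped on the horizontal axis as cortex, early, intermediate and late; symbols mark the replicate number, horizontal bars the mean and whiskers the SD of 3 arrays. The group means step down from 7.61 to 3.28 for *OsTCP7* and from 6.01 to 4.08 for *OsLBD3-6*, with the replicates of *OsLBD3-6* closer together.

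The spread between replicates separated these genes. The SD within groups, pooled over the 4 groups, was 0.77 for *OsTCP7* and 0.27 for *OsLBD3-6*, against a median of 0.21 over all probe sets with 1 gene and of 0.46 over those whose group means span at least 1 on the log2 scale. The SD of *OsTCP7* was above both medians and that of *OsLBD3-6* between them. Early replicate 2 and intermediate replicate 3 were the highest arrays of their group for both genes. The other groups differed. Cortex replicate 3 was the highest for *OsTCP7* (8.34) and the lowest for *OsLBD3-6* (5.81). Late replicate 1 was the lowest for *OsTCP7* (2.55) and level with the highest for *OsLBD3-6* (4.24).

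Against cortex, the mean log2 difference of *OsTCP7* was -2.44 for early, -3.39 for intermediate and -4.33 for late primordia (SE 0.55), which are 5.43-fold, 10.5-fold and 20.1-fold lower signals. That of *OsLBD3-6* was -0.81, -1.23 and -1.93 (SE 0.21), which are 1.76-fold, 2.34-fold and 3.81-fold lower signals. Ordered from the lowest difference upwards among the 24161 probe sets, *OsTCP7* held rank 14 for early, 3 for intermediate and 1 for late primordia, and *OsLBD3-6* held rank 512, 233 and 47. Both genes thus moved towards the low end from stage to stage. Arrays of cortex lay wholly above the arrays of the stage for both members in all 3 comparisons, a pattern held by 11.6% of all probe sets for the early, 15.4% for the intermediate and 14.2% for the late stage, and since the members were selected on it nothing is read from it.

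**Figure D2:**
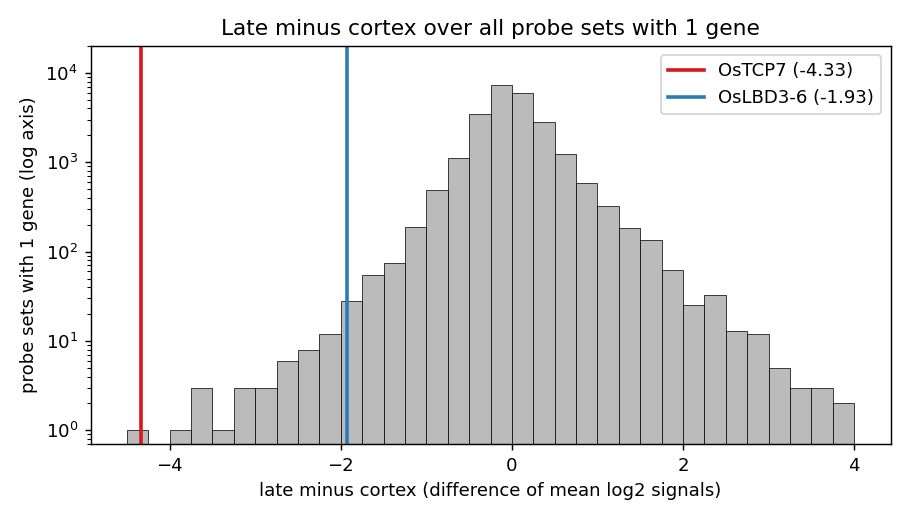
Number of probe sets with 1 gene (vertical, log axis) by the difference of mean log2 signal between late primordia and cortex (horizontal axis), with vertical lines at the 2 members. *OsTCP7* at -4.33 is the lowest of 24161 probe sets and *OsLBD3-6* at -1.93 is the 47th lowest.

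Between the stages themselves the differences were smaller. From early to intermediate the log2 difference of *OsTCP7* was -0.94 and from intermediate to late -0.94 again (SE 0.55). From early to late it was -1.89, a 3.70-fold lower signal and the 9th lowest difference of all probe sets. For *OsLBD3-6* the differences were -0.41 from early to intermediate, -0.70 from intermediate to late and -1.12 from early to late, the last a 2.17-fold lower signal at rank 66. Of the whole difference from cortex to late, the step from cortex to early made up 56.4% for *OsTCP7* and 42.1% for *OsLBD3-6*, and the last step 21.8% and 36.4%. Early arrays lay wholly above late arrays for both genes (7.5% of all probe sets), early above intermediate arrays for neither (5.84%) and intermediate above late arrays for *OsLBD3-6* (4.49%). Means that were lower at every step were found for 2079 probe sets (8.6%), and cortex arrays above all early arrays that in turn lay above all late arrays for 162 (0.671%).

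With arrays of 1 number read as the same stem bases, the steps can also be followed within each pair of plants. In replicate 1 *OsTCP7* was lower at each step, from 7.53 in cortex to 2.55 in the late stage. In replicate 2 the intermediate value (3.70) lay under the late value (4.12), and in replicate 3 the intermediate value (5.08) lay above the early value (4.94). Of 9 such steps, 7 were downward for *OsTCP7* and 8 for *OsLBD3-6*, whose exception was the step from early (5.03) to intermediate (5.05) in replicate 3. Late was lower than early in 3 of 3 replicates for each gene, with log2 differences of -1.93, -1.96 and -1.78 for *OsTCP7* and of -0.83, -1.26 and -1.27 for *OsLBD3-6*. Since every early array lay above every late array, any pairing of the arrays gives this count. The members were selected on this order of groups, so nothing is read from these counts of steps and replicates. The late minus cortex difference within pairs was less even for *OsTCP7*, at -4.98, -2.83 and -5.18, than for *OsLBD3-6*, at -1.93, -1.81 and -2.05.

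The size of the steps into and out of the intermediate stage moved when single replicates were left out, while the order of the stages did not. Without early replicate 2 the early to intermediate difference of *OsTCP7* was -0.48, without replicate number 2 in all groups -0.22, and without replicate number 3 -1.49. Its intermediate to late difference was -0.51 without intermediate replicate 3, -0.58 without late replicate 1, -1.63 without replicate number 2 and -0.45 without replicate number 3. For *OsLBD3-6* the early to intermediate difference was -0.27 without early replicate 2, -0.23 without intermediate replicate 1 and -0.63 without replicate number 3, and the intermediate to late difference was -0.41 without replicate number 3. None of these differences changed sign, which follows in part from the selection of both genes on this order.

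The brightest probe sets were dimmer on 2 of the 3 cortex arrays, with a 98th percentile of 7.48 and 7.54 on cortex replicates 2 and 3, 8.46 on cortex replicate 1 and 8.66 to 9.06 on the primordium arrays. The array medians were 2.87 to 2.97 in cortex and 2.82 to 2.91 on the primordium arrays. The part of array brightness in the levels of the members was not tested. Against cortex replicate 1 alone *OsTCP7* differed by -2.37, -3.31 and -4.26 and *OsLBD3-6* by -0.98, -1.39 and -2.10, in the order early, intermediate, late. After quantile normalization of the deposited values, which gives all arrays 1 distribution, the differences of *OsTCP7* were -3.29, -4.16 and -5.06 and those of *OsLBD3-6* -1.42, -1.84 and -2.47.

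Marker genes of the sampled tissues were read beside the members. The summed level of 4 primordium markers (*QHB*, *SCR1*, *SHR1* and *PSK1*) was 5.82 to 6.27 on the log2 scale on the cortex arrays, 7.98 to 8.19 on the early, 6.76 to 7.98 on the intermediate and 5.87 to 6.93 on the late arrays, so that the late range reached into that of cortex. Rose and fell stand here for a fold change of 1.5 or more with an adjusted p below 0.05 (limma). Over all probe sets 2.65%, 5.72% and 3.25% were called so for early, intermediate and late against cortex. Of these 4 genes, 2 rose in the early stage (*SCR1* and *PSK1*), 1 in the intermediate (*PSK1*) and 0 in the late stage. *QHB* and *SHR1* passed in no stage, and the late mean of *QHB* (3.74) was under its cortex mean (4.17). The study reported *SCR1*, *SHR1* and *PSK1* as raised on these same arrays. The *PLT* genes that were planned as markers were not matched by symbol. The brightest marker of the early sum was *PSK1* (mean 7.34). The summed level of 6 green tissue markers (light-harvesting chlorophyll a/b binding protein and Rubisco small subunit genes) was 6.35 to 7.93 in cortex, 5.18 to 5.20 in the early, 4.99 to 5.16 in the intermediate and 4.93 to 5.17 in the late stage. Of these 6 genes, 3 fell against cortex at the early, 4 at the intermediate and 3 at the late stage, and 0 were called between the stages. With only the 6 arrays compared none of these calls remained, when 2, 2 and 1 of all probe sets were called. After quantile normalization the calls of *CAB1R* (early and late) and *RCABP89* (intermediate), both light-harvesting genes, were lost. Both Rubisco small subunit genes passed in no stage, and the mean of *RBCS1* in cortex (2.85) was under the array median. The summed level of 4 vascular markers (*CESA4*, *CESA7*, *CESA9* and *SUT1*) was 4.69 to 5.26 in cortex and between 4.51 and 4.73 on all primordium arrays, and 0 of them were called in any comparison. Of the vascular markers 2 in cortex and 4, 4 and 3 in the successive stages had a mean under the array median, and of the green tissue markers 1 in cortex and 4, 5 and 5. The part of tissue make-up in the levels of the members was not tested, and in dissected tissue fewer cells of a type and less RNA per cell cannot be told apart.

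The relatives of both genes were counted to place the members within their families. They were compared with limma over all 24161 probe sets, and the words rose and fell stand for a fold change of 1.5 or more with an adjusted p below 0.05. At that rule 2.65% of all probe sets were called against cortex for early primordia, 5.72% for intermediate and 3.25% for late primordia. At the threshold that the study's methods name, an unadjusted p under 0.01 with the same fold change, 7.02%, 9.79% and 7.82% were called. Between the stages the first rule called 0 probe sets in each of the 3 comparisons (0%), and the second called 0.232% from early to intermediate, 1.11% from early to late and 0.132% from intermediate to late.

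Of 7 other TCP genes with a symbol (*PCF1*, *PCF2*, *PCF3*, *PCF5*, *PCF6*, *PCF7* and *PCF8*), 1 rose and 0 fell in the early stage, 1 rose and 0 fell in the intermediate stage, and 0 were called in the late stage, where 1 had an unadjusted p under 0.05. The median log2 change of the 7 genes was 0.20, 0.07 and -0.04, against -0.03, -0.03 and -0.02 over all probe sets. The gene that rose was *PCF2* (LOC4346214), a binder of the *PCNA* promoter, in the direction opposite to *OsTCP7*. *PCF2* read 3.40, 3.04 and 3.41 on the cortex arrays, 4.50, 5.17 and 4.50 on the early, 3.80, 4.42 and 4.41 on the intermediate and 3.53, 3.11 and 3.43 on the late arrays. Every early array stood above every intermediate array and every intermediate array above every late array, and the late arrays overlapped with cortex. Its log2 change against cortex was 1.44 for early primordia (SE 0.23, adjusted p = 0.0161, limma), 0.93 for intermediate (adjusted p = 0.0451) and 0.07 for late primordia (adjusted p = 0.872). With the replicate number as a block the intermediate rise was no longer called (adjusted p = 0.063). Against cortex replicate 1 alone, a single array that leaves little power, the changes were 1.32 and 0.81 (adjusted p = 0.194 and 0.465). From early to late *PCF2* differed by -1.36 (adjusted p = 0.212), which did not pass, so that *PCF2* and *OsTCP7* had lower means at each later stage but lay on opposite sides of cortex in the early one.

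*PCF3* (LOC4349919), another TCP gene, had the values nearest to those of *OsTCP7* in direction. Its group means were 4.63 ± 0.77, 4.10 ± 0.43, 3.43 ± 0.42 and 3.28 ± 0.08 (SD, n = 3) in cortex, early, intermediate and late. The log2 changes against cortex were -0.53, -1.20 and -1.35 (SE 0.36, adjusted p = 0.432, 0.0679 and 0.0652, limma), none of which passed the adjusted rule. At the threshold of the study's methods the intermediate and late changes of *PCF3* passed (unadjusted p = 0.00712 and 0.00345, limma), in the direction of *OsTCP7*. *PCF1*, the second of the *PCNA* promoter binders, had changes of 0.35, 0.31 and 0.09 (SE 0.20, adjusted p = 0.352, 0.34 and 0.807). The changes of *PCF5*, *PCF6*, *PCF7* and *PCF8* lay between -0.32 and 0.32 and none passed. Means that were lower at every step were found in 2 of the 7 genes, *PCF3* and *PCF7*. In the comparisons between stages 0 of the 7 genes were called, with an unadjusted p under 0.05 in 0 from early to intermediate, 2 from early to late and 1 from intermediate to late, against 3.14%, 6.2% and 2.48% of all probe sets.

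The LBD family could be followed in fewer genes. *LBD6* (LOC4324906), the 1 other gene found by its symbol, was dim in all groups, with means of 2.65, 2.56, 2.37 and 2.43 and changes of -0.10, -0.29 and -0.23 against cortex (SE 0.17, adjusted p = 0.776, 0.277 and 0.417, limma). A further 2 LBD genes are named by the study's annotation, which lists genes that the study had picked from these same arrays, so that their direction is not independent evidence. LOC4324028, set there beside Arabidopsis *LBD41*, had means of 4.94, 3.49, 3.77 and 4.07. LOC4332242, set beside Arabidopsis *LBD18*, a lateral root gene of that species, had means of 3.82, 2.94, 3.15 and 3.06. Both had their lowest mean in the early stage, whereas *OsLBD3-6* had its lowest in the late stage. They were taken from the study's list of early changes, so a low early mean follows in part from that choice. Their late minus early differences were 0.58 (SE 0.42, adjusted p = 0.915, limma) and 0.12 (SE 0.28, adjusted p = 0.995), and neither passed. *CRL1*, the LBD gene needed for crown root initiation in rice, could not be matched by symbol and is not analysed here.

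**Figure D3:**
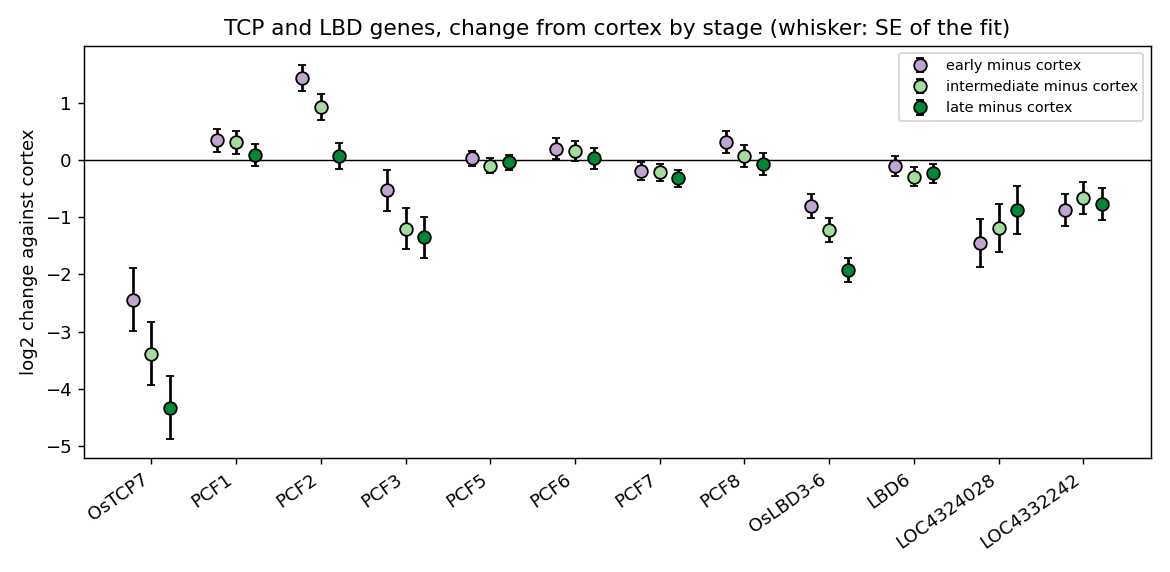
Log2 change against cortex (vertical axis) of *OsTCP7*, 7 other TCP genes, *OsLBD3-6* and 3 other LBD genes (horizontal axis) in the early, intermediate and late stage, with the SE of the fit as whiskers. *OsTCP7* reaches -4.33 in the late stage, *PCF3* -1.35, and *PCF2* lies at 1.44 in the early stage and at 0.07 in the late stage.

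A list of cyclin, cyclin-dependent kinase and *KRP* genes with *PCNA*, called cell division genes here, was read beside the TCP genes because of *PCNA*. The list was taken by symbol. It holds cyclins of the C, F, H, L, P and T types too, whose part in cell division was not checked. Of the 39 genes of the list, 2 rose in early primordia, 3 in intermediate and 0 in late, and 0 fell. An unadjusted p under 0.05 was found in 14, 15 and 11. Over all probe sets 2.65%, 5.72% and 3.25% were called, and 21.1%, 28.3% and 24.5% had an unadjusted p under 0.05. Their median log2 change was 0.25, 0.27 and 0.18. With the replicate number as a block 4 rose in early and 5 in intermediate primordia, *PCNA* among them. *KRP5*, which encodes an inhibitor of cyclin-dependent kinases, rose by 2.57 in early and 2.04 in intermediate primordia (SE 0.46, adjusted p = 0.0212 and 0.033, limma) and had a change of 1.40 in the late stage (adjusted p = 0.104). *CDKB2-1*, a mitotic kinase gene, rose by 1.76 and 1.41 (SE 0.32, adjusted p = 0.0219 and 0.0334) and had a change of 0.93 in the late stage (adjusted p = 0.114). *CYCB2-1*, a mitotic cyclin gene, rose by 0.70 in the intermediate stage (SE 0.18, adjusted p = 0.0454). *KRP1*, another *KRP* gene, was lower than in cortex, with changes of -0.91, -0.73 and -0.70 (SE 0.22, adjusted p = 0.0542, 0.0672 and 0.0929, limma). None of these passed the adjusted rule. At the threshold of the study's methods *KRP1* was the 1 gene of the list that was lower, in each stage. *PCNA* (LOC4331062) had means of 4.54, 5.98, 5.85 and 5.37 and changes of 1.44, 1.32 and 0.83 (SE 0.35, adjusted p = 0.0542, 0.0503 and 0.177), the first 2 of which passed with the replicate block (adjusted p = 0.0218 and 0.0234), and *CYCA2-1*, an A-type cyclin gene, changes of 1.95, 1.69 and 1.19 (SE 0.49, adjusted p = 0.061, 0.0622 and 0.172). Against cortex replicate 1 alone, a single array, the early and intermediate changes were 2.41 and 1.87 for *KRP5* and 1.48 and 1.13 for *CDKB2-1*, and the intermediate change of *CYCB2-1* was 0.48, with no call. After quantile normalization the changes of *KRP5* were 2.11 and 1.5 (adjusted p = 0.0503 and 0.091), those of *CDKB2-1* 1.15 and 0.67 (adjusted p = 0.0459 and 0.126) and the intermediate change of *CYCB2-1* 0.52 (adjusted p = 0.0696). The late minus early differences of *KRP5*, *CDKB2-1*, *CYCA2-1* and *PCNA* were -1.17, -0.83, -0.76 and -0.61 and none passed (adjusted p = 0.732, 0.724, 0.897 and 0.878). The lowest mean of these 4 genes, which were named for their large change, was in cortex, the highest group of the members.

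The likeness of the members was read over all arrays and within the groups. Over the 12 arrays the Pearson correlation of *OsTCP7* with *OsLBD3-6* was 0.911, over the 9 primordium arrays 0.837, and over the 12 deviations from the group means 0.353. Both genes were selected on the order of the groups, from which the first 2 of these values and the ranks that come next follow in part, and only the third is free of it. Arrays of 1 replicate number may share their plants. Among 1808 probe sets whose group means span at least 1 on the log2 scale, *OsLBD3-6* ranked 4th by correlation with *OsTCP7*, and *OsTCP7* ranked 2nd by correlation with *OsLBD3-6*. Correlations of at least 0.9 were reached by 7 of the 1808 probe sets with *OsTCP7* and by 5 with *OsLBD3-6*, and the median correlation was -0.539 and -0.452.

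The genes most like *OsTCP7* over the 12 arrays were LOC9272028 (r = 0.935), *OsPIP2;6* (LOC4335226, r = 0.928), which encodes a plasma membrane aquaporin, LOC4332399 (r = 0.921), *OsLBD3-6* and LOC4336422 (r = 0.909). LOC9272028 came nearest in size, with group means of 7.04, 4.45, 3.71 and 3.30 in cortex, early, intermediate and late. *OsPIP2;6* had a like order with smaller steps, at 6.13, 5.51, 5.26 and 4.93. The genes most like *OsLBD3-6* were LOC4334822 (r = 0.915), *OsTCP7*, LOC4339170 (r = 0.908), *ARF5* (LOC4328265, r = 0.904), a gene of the auxin response factors that bind auxin-regulated promoters, and LOC4349424 (r = 0.90). The group means of *ARF5* were 4.18, 3.11, 2.71 and 2.47, and those of LOC4334822 were 5.09, 3.96, 3.63 and 3.31. All of these genes were picked by their likeness, and each had means that were lower at every step.

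**Figure D4:**
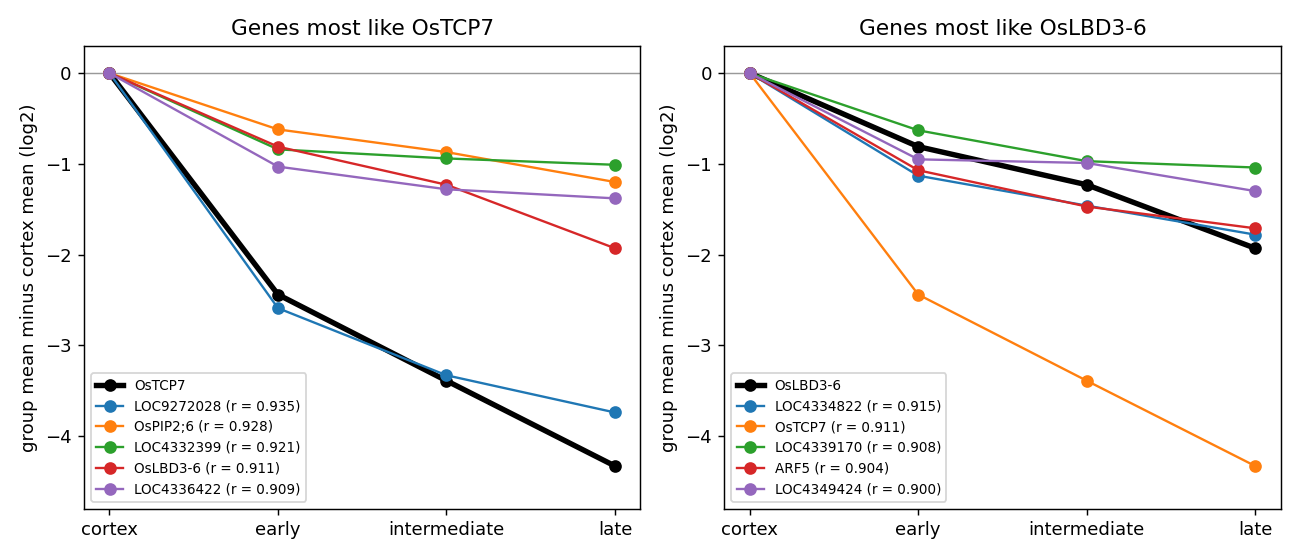
Group mean minus cortex mean (log2, vertical axis) across cortex, early, intermediate and late (horizontal axis) for *OsTCP7* (left, black) and *OsLBD3-6* (right, black) and the 5 genes most correlated with each over 12 arrays (colours, r in the legend). LOC9272028 follows *OsTCP7* closely up to the intermediate stage, and the other genes follow it with smaller steps.

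With cortex left out the most similar genes were others. Over the 9 primordium arrays *OsTCP7* was most correlated with LOC4334822 (r = 0.966), LOC4325066 (r = 0.946) and LOC4336271 (r = 0.924). LOC4336271 had means of 5.70, 6.71, 6.03 and 5.28, so that it was higher in the early stage than in cortex while declining between the stages. *OsLBD3-6* was most correlated with LOC4340602 (r = 0.970), *PCF2* (r = 0.937) and LOC4330005 (r = 0.936). These 3 genes had their lowest mean in cortex, at 2.95 for LOC4340602, 3.28 for *PCF2* and 8.07 for LOC4330005, and their highest in the early stage, at 4.21, 4.72 and 10.35. LOC4334822, in contrast, followed *OsLBD3-6* within the primordia (r = 0.886) and, like it, had its highest mean in cortex.

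The genes that flank the members in the reference annotation were read to see whether they changed as well. None of them was called by the adjusted rule, which called 2.65%, 5.72% and 3.25% of all probe sets in the successive stages. With so few genes, none called is near that share. Around *OsTCP7* the nearest measured genes were LOC4330078 and LOC4330079 on one side and LOC4330083 and LOC4330084 on the other. Their changes against cortex lay between -0.03 and 0.64, and none of the 4 passed the adjusted rule in any stage. The lowest adjusted p was 0.0908, for LOC4330084 in the late stage (limma). At the threshold of the study's methods that late change passed (log2 change 0.64, unadjusted p = 0.00812, limma), in the direction opposite to *OsTCP7*. Around *OsLBD3-6* the nearest were LOC4333625, LOC4333626, LOC4333628 and LOC4333629, with changes between -0.25 and 0.37, none of which passed.

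**Figure D5:**
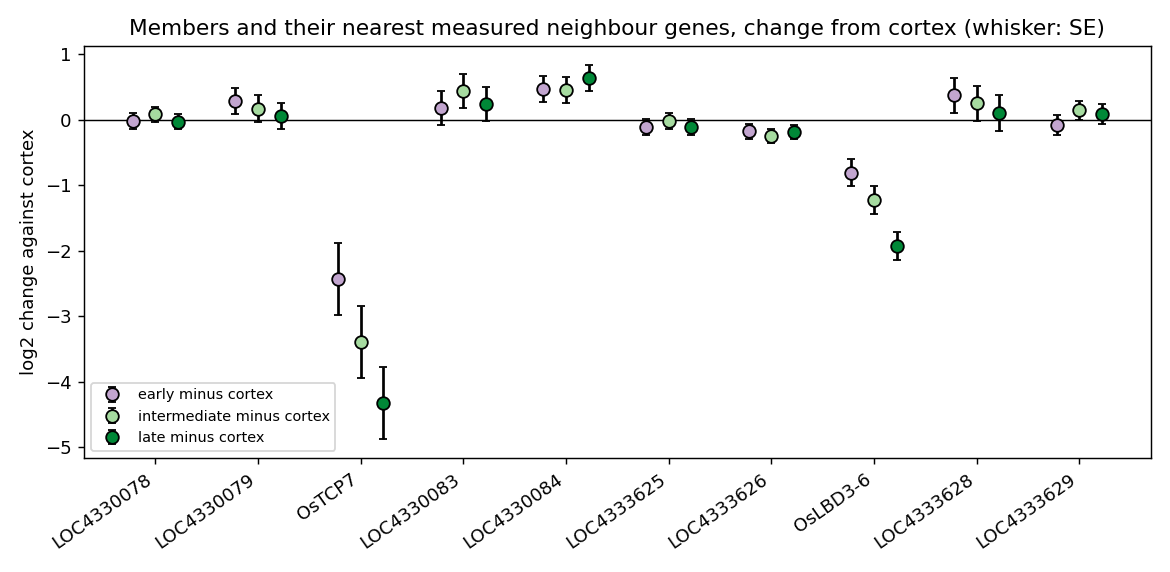
Log2 change against cortex (vertical axis) of *OsTCP7*, *OsLBD3-6* and the 4 nearest measured genes around each, in the order of the reference annotation (horizontal axis), for the early, intermediate and late stage, with the SE of the fit as whiskers. The 8 flanking genes stay between -0.25 and 0.64, while the members reach -4.33 and -1.93.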

How the data were processed

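The authors deposited log2 signals per probe set and array, described as normalized. Their upper ends still differed between arrays, with a 98th percentile of 7.48 on cortex replicate 2 and 9.06 on late replicate 1. The methods describe Robust Multi-array Average, whereas the submitters' processing notes list GCRMA with Affymetrix Expression Console. The sources used here do not settle which was applied, and this bears most on low signals. Of 36643 probe sets, 24161 carried 1 gene, 90 several and 12392 none, and those with 1 gene were tested. A group means model on all 12 arrays was fitted with limma 3.58.1 in R 4.3.3 and adjusted by Benjamini-Hochberg. The model was also run on simulated data after the results were made, and nothing is read from that run here. The number of arrays limits the precision.

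The members and gene lists were chosen with earlier results of these data known. Named genes were the members, TCP and LBD relatives by symbol, *PCNA*, the 5 genes most correlated with each member, the 4 cell division genes of largest mean change and any called in the text, *KRP1*, the markers, and flanking genes, the last added for context. Replicate numbers were read from the design as pairs of stem bases, which the labels do not state. Same-numbered arrays had correlations of deviations from -0.315 to 0.355 (mean 0.051), 7 of 18 above 0.1. Those of arrays with different numbers ran from -0.378 to 0.256 (mean -0.026), 8 of 36 above 0.1. Alternatives were a replicate block, only the 6 arrays compared, quantile normalization, median centring, a filter on dim probe sets under the 20th percentile, the methods' threshold, leaving out arrays and, added after seeing the data, cortex replicate 1 alone. Gene names came from the reference table of assembly ASM3414082v1, and no coordinates or sequences are given.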

Additional observations from a re-analysis of the deposited data

How the results depend on the processing

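No difference of *OsTCP7* or *OsLBD3-6* changed sign under any alternative run. Both genes were selected on this order of groups, so the kept signs are a description and no test of it. Where the arrays of the compared groups did not overlap, leaving out arrays cannot change the sign. After quantile normalization *OsTCP7* differed from cortex by -3.29 (early) and -4.16 (intermediate), and *OsLBD3-6* by -1.42, -1.84 and -2.47 (early, intermediate, late). Leaving out arrays, the *OsTCP7* differences ranged from -3.23 to -1.96, -3.82 to -3.02 and -5.08 to -3.91 for early, intermediate and late against cortex, from -1.49 to -0.22 (intermediate minus early), -1.63 to -0.45 (late minus intermediate) and -2.31 to -1.43 (late minus early). Those of *OsLBD3-6* ranged from -0.96 to -0.67, -1.46 to -0.96 and -2.03 to -1.77, and from -0.63 to -0.23, -0.96 to -0.41 and -1.26 to -0.96.

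The 1 TCP call (*PCF2*) of the early stage became 0 with only the 6 arrays compared, with cortex replicate 1 alone, and without cortex replicate 2, early replicate 2, early replicate 3, replicate number 2 or replicate number 3. That of the intermediate stage became 0 with the replicate block, the 6 arrays or cortex replicate 1 alone and in all leave-outs except those of cortex replicate 1, early replicate 2 and replicate number 1. At the methods' threshold the TCP calls numbered 2 in the intermediate stage (*PCF2* higher, *PCF3* lower) and 1 in the late stage (*PCF3* lower). TCP and LBD calls between stages then numbered 1 from early to late and 1 from intermediate to late, *PCF2* being lower in both. TCP calls ranged from 0 to 1 in each stage when arrays were left out, 1 in the late stage without cortex replicate 1, and LBD calls and calls between stages stayed at 0. Early cell division calls (2) became 8 at the methods' threshold, 4 with the replicate block, 1 after quantile normalization and 0 with the 6 arrays or cortex replicate 1 alone. Intermediate ones (3) became 8 at the methods' threshold, 5 with the replicate block, 8 after median centring, 5 without dim probe sets, 1 after quantile normalization and 0 with the 6 arrays or cortex replicate 1 alone, and late ones (0) became 1 at the methods' threshold. At the methods' threshold 7 of the cell division calls were higher and 1 lower in early and in intermediate primordia. The 1 late call, *KRP1*, was lower. Leaving out arrays gave 0 to 6, 0 to 7 and 0 to 2 cell division calls, with the highest counts without cortex replicate 1. The early count was 0 without cortex replicate 2, early replicate 2, early replicate 3, replicate number 2 or replicate number 3, and 5 without replicate number 1. The intermediate count was 0 without cortex replicate 2, any 1 intermediate array, replicate number 2 or replicate number 3, and 1 without early replicate 3. The late count was 1 without cortex replicate 3 or replicate number 1. Calls over all probe sets moved as well, from 641, 1382 and 785 for early, intermediate and late against cortex. They numbered 2, 2 and 1 with only the 6 arrays compared and 0 in each stage without replicate number 2. Without replicate number 3 they numbered 21, 17 and 10, and without cortex replicate 1 they numbered 2336, 3633 and 2971. The cause of these changes was not tested. Beside *PCF2* and *PCNA*, the replicate block changed no call of a gene given with its own p.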
